A study of Homo sapiens with 6 samples.

Results

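Constitutive proteasome genes were examined in A-498 cells, an established human renal cell carcinoma line, after zebularine, a cytidine analogue that inhibits DNA methyltransferases. Members were all probe sets whose array annotation gives exactly 1 symbol made of PSM, a letter from A to G and a number, without the interferon-inducible catalytic subunits PSMB8, PSMB9 and PSMB10. The rule found 59 of 22277 probe sets, for 36 of 11963 gene symbols. The 36 genes comprised 13 of the 20S core, and 5 ATPase and 12 non-ATPase (PSMD) genes of the 19S particle. The other 6 were activators, an inhibitor or core assembly chaperones. PSMD5, PSMD9 and PSMD10, counted among the 12, are assembly chaperones of the 19S base. PSMA6 and PSME2 shared their probe sets with other symbols, and further subunits that the rule did not reach were not analysed here. Some members are constitutive by name more than by behaviour, since PSME1 is itself known as inducible by interferon gamma.

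The treated group was 3 cultures kept for 120 h with 1000 µM zebularine, and the untreated group was 3 cultures kept for the same time without it. Each culture gave total RNA for 1 Affymetrix array, and replicates were numbered 1 to 3 in both groups. Arrays with the same replicate number also share a code in their sample descriptions, and such a pair is called an experiment here. Cultures were split on days 3 and 5 in both groups. All results come from a single cell line, dose and time.

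The 26S proteasome degrades proteins that carry ubiquitin chains. Its barrel, the 20S core, has outer rings of alpha subunits that gate the pore and inner rings of beta subunits, of which PSMB5, PSMB6 and PSMB7 cut peptide bonds. The 19S particle caps the barrel: its ATPases (PSMC genes) unfold substrates, and its non-ATPase subunits (most PSMD genes) form the scaffold, bind ubiquitin and remove it. In clear cell kidney cancer the complex is known through the VHL ubiquitin ligase, whose loss spares hypoxia-inducible factors from proteasomal destruction.

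Array medians ran from 126.5 to 134.4 signal units on zebularine arrays and from 117.9 to 140.8 on untreated arrays. Both arrays of experiment 3 had lower maxima, 28720.5 with zebularine and 31176.4 untreated, against 66289.9 to 71174.1 on the other 4 arrays. The median signal of the spike controls was lower there too, at 1374.6 with zebularine and 1209.6 untreated. On the other 4 arrays it ran from 3327.9 to 3835.1. Of 8 kidney and renal carcinoma markers examined, 6 lay above a detection floor of 78.6 signal units on all 6 arrays, namely PAX8, PAX2, CDH6, KRT8, KRT18 and VIM. CDH6, a kidney cadherin, fell: its brightest probe set had 174.5, 102.8 and 209.1 on zebularine arrays, against 1407.4, 2209.0 and 584.4 on untreated arrays (log2 difference -2.85 ± 0.42; limma, adjusted p = 0.0206). Its part in the proteasome results was not tested. Of 10 markers of blood, endothelial, fibroblast, muscle and liver cells, only ACTA2 lay above that floor on every array. The summed signal of these 10 ran from 870.7 to 1057 on zebularine arrays and from 864.2 to 1097 on untreated arrays. Without ACTA2 the sum of the other 9 ran from 405.4 to 562.0 on zebularine arrays and from 223.3 to 411.0 on untreated arrays, and its part in the results was not tested.

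Most 20S core and 19S genes had slightly higher means after zebularine, and the activators had lower means. Median shifts of the core and 19S classes were smaller than the median spread (SD) between cultures of a group. For the activators the median was -0.52 against a spread of 0.36. This spread includes differences between experiments. Within experiments 1, 2 and 3 the median difference of the 36 genes was 0.18, 0.047 and 0.18. Of the 36 genes, 29 had a positive log2 difference and 7 a negative one, against 3911 of 7938 tested genes with a positive difference. The median log2 difference, zebularine minus untreated on the log2(signal + 16.34) scale, was 0.16, and the middle 50% of the genes lay between 0.061 and 0.24. For all tested genes the median was -0.0089, with the middle 50% between -0.32 and 0.30. Each gene is represented by its brightest tested probe set. In RNA from a whole culture, fewer expressing cells and less RNA per cell cannot be told apart.

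No member passed the test of treatment alone. Testing was limited to probe sets with a signal of 78.6 or more, a detection floor set at the 40th percentile, on 3 or more arrays, and 56 of the 59 met it. At a Benjamini-Hochberg adjusted p under 0.05 limma called 0 of these 56, with 3 at an unadjusted p under 0.05, while over all 13545 tested probe sets it called 0.620% and found 12.6% at an unadjusted p under 0.05. When experiment was added as a block, limma called 1 of 56, a PSMD12 probe set that was higher after zebularine, against 4.22% of all tested probe sets. At an unadjusted p under 0.05 the blocked test found 7 of 56 against 20.7%, with 4 higher against 9.56% and 3 lower against 11.2%. These counts are too few to set the members apart from the background in either fit. By gene, at an unadjusted p under 0.05 and without the block, 2 of 36 were higher against 6.25%, and 0 were lower against 6.84%.

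The median difference of the 36 genes was 0.18, 0.047 and 0.18 in experiments 1, 2 and 3. The treated array was higher in all 3 experiments in 16 of the 36 genes, against 21.5% of all tested genes, and lower in all 3 in 2, PSME1 and PSME3, against 22.0%. The other 18 genes changed sign between experiments. PSME3 was lower in all 3 at 2 of its 4 probe sets only. Treated arrays lay wholly above untreated arrays in 2 genes, PSMD12 and PSMD2, against 9.32%, and wholly below in 0, against 8.83%. The size of the median moved with single unpaired arrays: without untreated 1 the median over the 36 was -0.025, and without untreated 2 it was 0.35. Leaving out 1 array of a pair unbalances the experiments. Without both arrays of experiment 1, 2 or 3 the median stayed positive, at 0.13, 0.21 and 0.12.

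A larger share of these genes than of all tested genes had intervals within a 2-fold change. This share depends on the size of the differences as well as on their precision, and none was taken over genes of like brightness. The 95% interval of the log2 difference lay within a 2-fold change in either direction for 29 of 36 genes, or 80.6%, against 46.9% of all tested genes. With experiment as a block it did so for 33 genes, against 58.5%. The unblocked count rested on which arrays were used: it was 19 without zebularine 1, 18 without untreated 2, 18 without experiment 2 and 16 without experiment 3. With all arrays but no mean-variance trend in the fit it was 22. The median spread within groups was 0.36 (SD on the log2 scale) for the members and 0.37 for all tested genes.

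**Figure D1:**
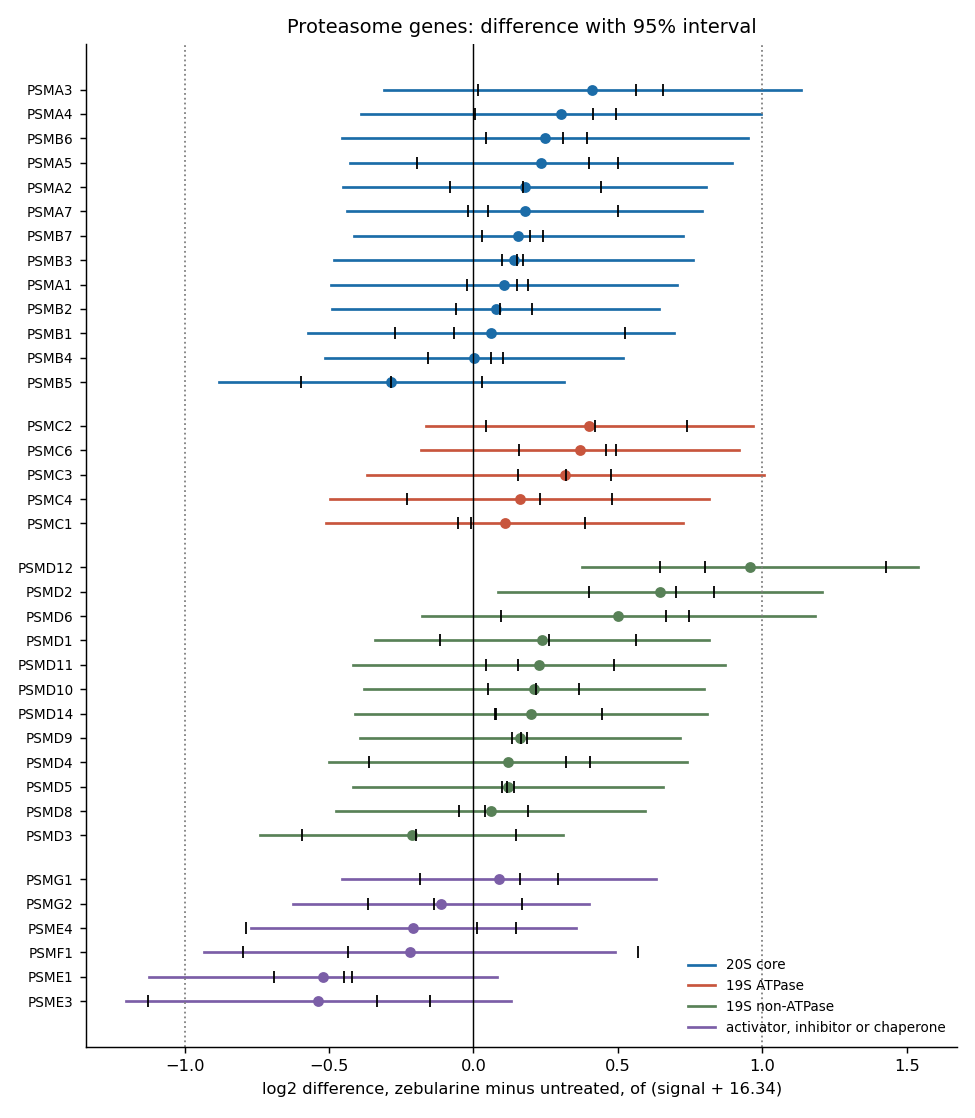
Log2 difference, zebularine minus untreated, of the 36 proteasome genes by class, each by its brightest tested probe set; dots are limma estimates, bars their 95% intervals and black ticks the differences of the 3 experiments, with dotted lines at a 2-fold change. Of the 36 intervals, 29 lie within the dotted lines, and those of PSMD12 and PSMD2 exclude 0.

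PSMD12, PSMD2 and PSME1 had the clearest differences by treatment. PSMD12, a scaffold subunit of the 19S lid, had signals of 2214, 2475 and 2178 on zebularine arrays 1, 2 and 3, against 813, 1414 and 1386 on untreated arrays 1, 2 and 3. The groups did not overlap, as was true of 18.2% of tested genes in either direction. The mean was 2289 ± 162 with zebularine and 1204 ± 339 without (SD, n = 3 each), a log2 difference of 0.96 ± 0.27 (standard error; limma, adjusted p = 0.159, and 0.0299 with experiment as a block). The difference was 1.43, 0.80 and 0.65 in experiments 1, 2 and 3. The blocked call was lost without experiment 1, where the difference was 0.72 (limma, adjusted p = 0.203). The dimmer probe set of the same gene differed by only 0.15 ± 0.24 (limma, adjusted p = 0.839), with signals of 839, 790 and 962 on zebularine arrays against 834, 754 and 735 on untreated arrays. It overlapped between the groups. The PSMD12 result therefore rests on 1 of its 2 probe sets, and averaging them gave 0.55 (limma, adjusted p = 0.3).

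PSMD2, a large scaffold of the 19S base that receives substrates and shuttle factors, had signals of 3554, 4297 and 4720 on zebularine arrays, against 1988, 3250 and 2900 on untreated arrays. Its groups also did not overlap. The log2 difference was 0.64 ± 0.26 (limma, adjusted p = 0.325), higher in each of the 3 experiments. It did not pass with the block either. Without experiment 2 the blocked test did call it, at 0.77 (limma, adjusted p = 0.0337). That fit was chosen after seeing the data, and its share of calls over all probe sets is not given here. It also called 6 of the partner genes described below, against 1 in the blocked fit of all arrays.

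PSME1, the alpha subunit of the PA28 activator that opens the core without ATP, had the opposite sign. Its signals were 1280, 1287 and 1803 on zebularine arrays, against 1721, 1761 and 2920 on untreated arrays. Every experiment gave a lower treated value, though zebularine 3 exceeded untreated 1 and 2. The log2 difference was -0.52 ± 0.28 (limma, adjusted p = 0.473).

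**Figure D2:**
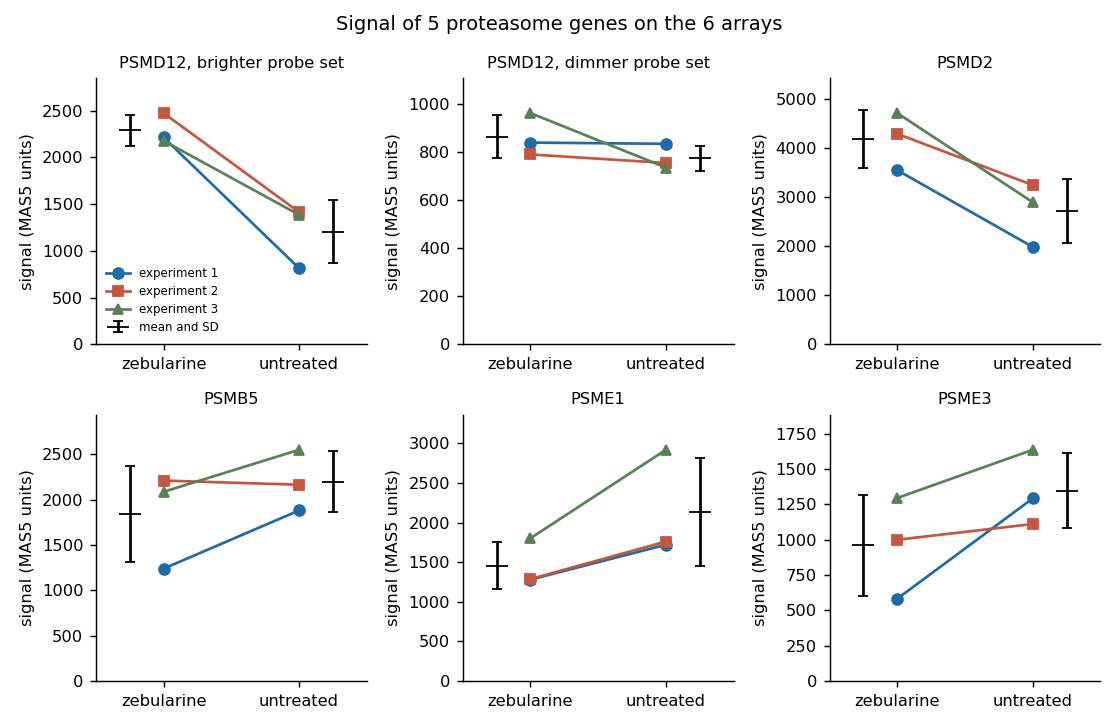
Signal of PSMD12 (2 probe sets), PSMD2, PSMB5, PSME1 and PSME3 on the 3 zebularine arrays (left) and the 3 untreated arrays (right), with a line joining the arrays of each experiment and black bars for the mean and SD. The brighter PSMD12 probe set and PSMD2 separate the groups, while the dimmer PSMD12 probe set overlaps between them.

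Proteasome genes are known to be induced together through the antioxidant response element, which NFE2L1 and NFE2L2 bind, so their promoters were read from RefSeq (GRCh38.p14, 250 bases before to 50 after the gene start). The promoters of PSMD12 and PSMD2 are shown because these genes differed most clearly by treatment. That of PSME1, a gene with a negative difference, is shown beside them. Capitals mark matches to the element's core, TGACNNNGC, on either strand. They lie at chr17:67366528-67366827 (minus strand), chr3:184298991-184299290 (plus strand) and chr14:24135944-24136243 (plus strand), and each reads 5′ to 3′ in the direction of its gene.

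PSMD12: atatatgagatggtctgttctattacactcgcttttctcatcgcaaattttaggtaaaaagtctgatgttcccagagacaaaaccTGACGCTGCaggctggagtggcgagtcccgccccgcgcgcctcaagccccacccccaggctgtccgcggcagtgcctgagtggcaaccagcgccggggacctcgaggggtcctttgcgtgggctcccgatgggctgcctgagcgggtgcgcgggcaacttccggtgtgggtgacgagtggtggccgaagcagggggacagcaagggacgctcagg
PSMD2: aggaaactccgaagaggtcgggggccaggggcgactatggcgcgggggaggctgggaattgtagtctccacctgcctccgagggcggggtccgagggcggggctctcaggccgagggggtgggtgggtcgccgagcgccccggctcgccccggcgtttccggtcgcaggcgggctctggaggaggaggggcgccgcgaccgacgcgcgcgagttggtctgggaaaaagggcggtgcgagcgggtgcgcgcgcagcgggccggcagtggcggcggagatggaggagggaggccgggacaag
PSME1: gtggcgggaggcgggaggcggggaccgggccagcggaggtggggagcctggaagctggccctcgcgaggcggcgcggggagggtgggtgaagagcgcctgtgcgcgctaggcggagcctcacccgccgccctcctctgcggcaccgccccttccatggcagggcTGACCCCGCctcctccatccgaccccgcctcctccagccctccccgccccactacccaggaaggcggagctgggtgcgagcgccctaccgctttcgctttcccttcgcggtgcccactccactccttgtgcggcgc

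The core matched once in PSMD12, at positions -165 to -157 from the start, once in PSME1, at positions -86 to -78, and nowhere in the PSMD2 window. Of the 36 members 31 had a RefSeq promoter, and 11 of them, or 35.5%, held TGACNNNGC. Among the 25 promoters of core and 19S genes 7 held it. Over all 27305 RefSeq promoters 13.6% held it, and among the 15843 of protein-coding genes 14.3%. The CCAAT box, on either strand, was in 15 of the 31 (48.4%) and in 35.7% of all promoters. In 3 members both motifs occurred, and no match of the one overlapped a match of the other. The 11 genes with TGACNNNGC had a median log2 difference of 0.12 (range -0.52 to 0.96) and the other 20 a median of 0.20 (range -0.54 to 0.64). The motif thus stood in promoters of genes from either end of the range, as the PSMD12 and PSME1 sequences show. These are letter matches, and binding was not measured.

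**Figure D3:**
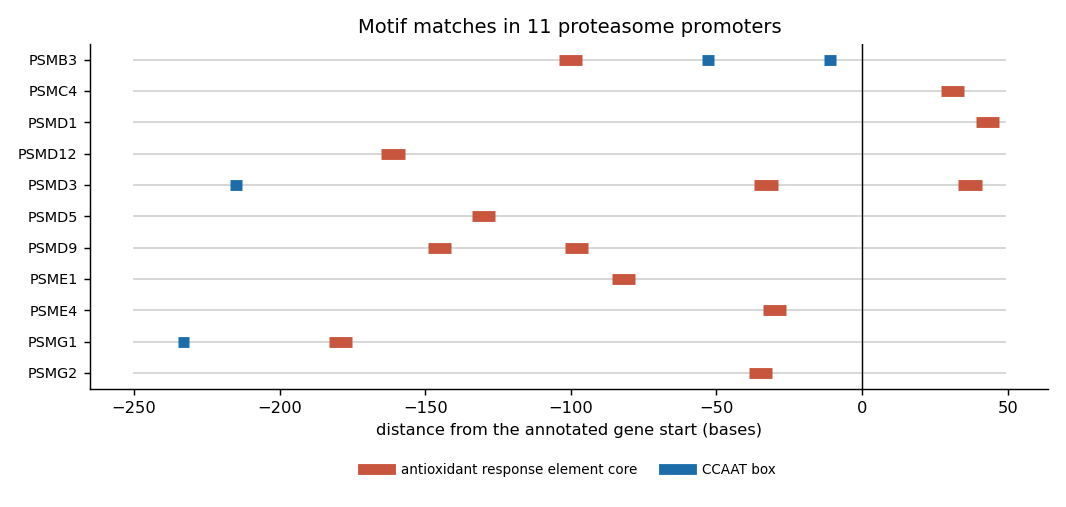
Position of TGACNNNGC (red) and CCAAT (blue) matches on either strand, in bases from the annotated gene start, for the 11 proteasome genes whose promoter window holds TGACNNNGC. TGACNNNGC matches are spread from position -183 in PSMG1 to position 47 in PSMD1.

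The 20S core had small differences between groups. All 6 alpha genes and 6 of 7 beta genes had positive differences, with a median of 0.16 over the 13, and none was called. Experiment medians were 0.19, 0.014 and 0.20. The median was -0.044 without untreated 1, 0.0054 without zebularine 2, 0.34 without zebularine 1 and 0.36 without untreated 2. Its size and, once, its sign thus moved with single unpaired arrays. Such fits unbalance the experiments, so they cannot separate treatment from differences between experiments. Without both arrays of an experiment it stayed between 0.12 and 0.23. The 95% interval lay within a 2-fold change for 12 of the 13, the exception being PSMA3.

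Among alpha ring genes, PSMA3 had signals of 2071, 3405 and 3062 on zebularine arrays, against 1307, 3371 and 2066 on untreated arrays. It gave the largest difference of the core, 0.41 ± 0.33 (limma, adjusted p = 0.653). PSMA4 had 3431, 5891 and 4959 on zebularine arrays, against 2571, 5874 and 3519 on untreated arrays, a difference of 0.30 ± 0.32 (limma, adjusted p = 0.741). In both genes the pair of experiment 2 was nearly equal and the pairs of experiments 1 and 3 were apart. The other 4 alpha genes, PSMA1, PSMA2, PSMA5 and PSMA7, differed by 0.11 to 0.24.

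The 3 catalytic subunits gave no shared direction. PSMB5, the chymotrypsin-like subunit and main target of bortezomib, had signals of 1239, 2210 and 2087 on zebularine arrays, against 1881, 2165 and 2550 on untreated arrays. It was the only core gene with a negative difference, -0.28 ± 0.28 (limma, adjusted p = 0.717), lower in experiments 1 and 3 and near equal in experiment 2. PSMB6, the caspase-like subunit, had 2815, 5244 and 3896 on zebularine arrays, against 2269, 5084 and 2962 on untreated arrays, a difference of 0.25 ± 0.32 (limma, adjusted p = 0.801). PSMB7, the trypsin-like subunit, had 4426, 7200 and 6265 on zebularine arrays, against 4340, 6278 and 5299 on untreated arrays, a difference of 0.16 ± 0.26 (limma, adjusted p = 0.852). PSMB6 and PSMB7 were higher in all 3 experiments, yet by less than the spread within either group.

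Of the non-catalytic beta subunits, PSMB4 was closest to no difference. Its signals were 7326, 8953 and 6413 on zebularine arrays, against 7026, 8343 and 7152 on untreated arrays, a difference of 0.0016 ± 0.24 with a 95% interval from -0.51 to 0.52. PSMB1 had 6754, 7924 and 5396 on zebularine arrays, against 4693, 9573 and 5657 on untreated arrays, a difference of 0.061 ± 0.29 (limma, adjusted p = 0.956). PSMB1 was higher in experiment 1 only. PSMB2 and PSMB3 differed by 0.077 and 0.14. Of the inducible counterparts none was called: PSMB8, PSMB9 and PSMB10 differed by -0.18 ± 0.29, 0.28 ± 0.37 and -0.017 ± 0.25 (limma, adjusted p = 0.844, 0.804 and 0.987).

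All 5 tested 19S ATPase genes had positive differences, and none was called. Their median was 0.32, with experiment medians of 0.46, 0.16 and 0.42. With the probe sets of each gene averaged the median was 0.16, as PSMC2 then differed by 0.078. By the brightest probe sets the median was 0.038 without untreated 1, 0.063 without zebularine 2 and 0.55 without untreated 2. Without both arrays of an experiment it stayed between 0.24 and 0.32. PSMC2 had signals of 5973, 6580 and 5754 on zebularine arrays, against 3571, 6386 and 4290 on untreated arrays, a difference of 0.40 ± 0.26 (limma, adjusted p = 0.565). PSMC6 had 1539, 1952 and 1813 on zebularine arrays, against 1117, 1749 and 1282 on untreated arrays, a difference of 0.37 ± 0.25 (limma, adjusted p = 0.588). Treated signals of PSMC2 and PSMC6 stayed within narrow ranges while untreated 1 was lowest and untreated 2 overlapped the treated arrays.

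PSMC3 had 2029, 3816 and 2481 on zebularine arrays, against 1453, 3050 and 2230 on untreated arrays, a difference of 0.32 ± 0.32 (limma, adjusted p = 0.726). PSMC4 had 617, 1161 and 1294 on zebularine arrays, against 727, 988 and 924 on untreated arrays, a difference of 0.16 ± 0.30 (limma, adjusted p = 0.872). PSMC4 was lower with zebularine in experiment 1 and higher in the other 2. PSMC1 had 2774, 3836 and 2515 on zebularine arrays, against 2119, 3982 and 2531 on untreated arrays, a difference of 0.11 ± 0.29 (limma, adjusted p = 0.908), and only experiment 1 separated its pair. PSMC2, PSMC3 and PSMC6 were higher in all 3 experiments.

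Of the 12 PSMD genes 11 had positive differences, with a median of 0.20 and experiment medians of 0.31, 0.11 and 0.29. The median was 0.029 without untreated 1, 0.35 without zebularine 1 and 0.39 without untreated 2. Without both arrays of an experiment it stayed between 0.14 and 0.31. In 8 of the 12 the treated array was higher in all 3 experiments, against 21.5% of all tested genes. Beside PSMD12 and PSMD2, the largest difference was that of PSMD6, a lid scaffold, with signals of 1808, 2652 and 2094 on zebularine arrays against 1072, 2482 and 1315 on untreated arrays. It differed by 0.50 ± 0.31 (limma, adjusted p = 0.549), and untreated 2 lay above 2 of the treated arrays.

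PSMD3, another lid scaffold, was the only PSMD gene with a negative difference. It had 1377, 1515 and 1095 on zebularine arrays, against 1581, 1365 and 1661 on untreated arrays, a difference of -0.21 ± 0.24 (limma, adjusted p = 0.764). PSMD8, also of the lid, had 2728, 3984 and 2951 on zebularine arrays, against 2651, 3494 and 3060 on untreated arrays, a difference of 0.059 ± 0.25 (limma, adjusted p = 0.947). PSMD5, an assembly chaperone of the 19S base that is not part of the finished particle, had 608, 665 and 773 on zebularine arrays, against 566, 612 and 699 on untreated arrays. Its difference of 0.12 ± 0.25 (limma, adjusted p = 0.882) was alike in every experiment, at 0.10, 0.12 and 0.14. The other base chaperones PSMD9 and PSMD10 (gankyrin) differed by 0.16 and 0.21. The deubiquitinase PSMD14, the ubiquitin receptor PSMD4, the scaffold PSMD1 and the lid subunit PSMD11 lay between 0.12 and 0.24.

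The activators and the inhibitor had negative differences at their brightest probe sets, and the core chaperones were split, PSMG1 being positive. The median was -0.21 over these 6 genes, with 1 positive difference. In experiment 3 the treated array was higher in 3 of the 6. Experiment medians were -0.39, -0.14 and -0.16. None was called. Beside PSME1, the nuclear activator PSME3 (PA28 gamma) had signals of 582, 999 and 1294 on zebularine arrays, against 1291, 1110 and 1635 on untreated arrays. It differed by -0.54 ± 0.31 (limma, adjusted p = 0.509) and was lower in every experiment at this probe set. Averaging its 4 probe sets gave -0.29, and leaving out probe sets that can bind related transcripts turned the sign, at 0.13. PSME4 (PA200), linked to histone degradation, had 853, 610 and 852 on zebularine arrays, against 768, 1065 and 845 on untreated arrays, a difference of -0.21 ± 0.26 (limma, adjusted p = 0.791) that came from experiment 2.

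PSMF1 (PI31), first described as an inhibitor of the core, had 258, 553 and 471 on zebularine arrays, against 461, 367 and 642 on untreated arrays. Its difference of -0.22 ± 0.33 (limma, adjusted p = 0.828) was positive in experiment 2 and negative in the other 2. The chaperones PSMG1 and PSMG2, partners in assembling the alpha ring, gave small differences of opposite sign. PSMG1 had 846, 1292 and 1165 on zebularine arrays, against 965, 1053 and 1040 on untreated arrays, a difference of 0.089 ± 0.25 (limma, adjusted p = 0.915). PSMG2 had 1721, 2119 and 2404 on zebularine arrays, against 2222, 2332 and 2138 on untreated arrays, a difference of -0.11 ± 0.24 (limma, adjusted p = 0.885). The contrast between these 6 genes and the core is given as counts and medians and was not tested.

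The probe sets of 1 gene did not always give the same direction. Of 15 genes with more than 1 tested probe set, 8 had differences of 1 sign and 7 of mixed sign, and in 5 genes they spanned more than 0.5. The widest span was in PSME3, from -0.77 to 0.13 over 4 probe sets. Its dimmest probe set had signals of 112, 152 and 106 on zebularine arrays, against 238, 191 and 233 on untreated arrays, with no overlap (-0.77 ± 0.33; limma, adjusted p = 0.37). In PSMC2, PSMA2 and PSMD11 the brighter probe set was higher after zebularine, at 0.40, 0.18 and 0.23, and the dimmer lower, at -0.24, -0.36 and -0.24. No gene had probe sets beyond 0.5 in opposite directions. The 3 untested probe sets, for PSMB1, PSMD4 and PSMD5, had signals from 4.4 to 81.1.

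**Figure D4:**
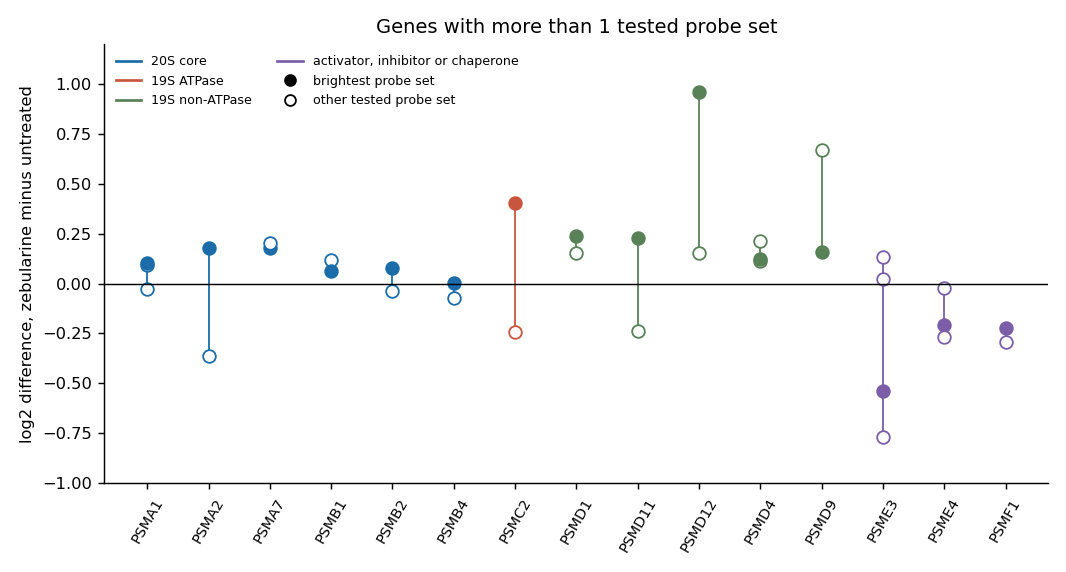
Log2 difference, zebularine minus untreated, of each tested probe set for the 15 proteasome genes with more than 1; filled dots are the brightest probe set of a gene. Spans exceed 0.5 in 5 genes, with PSME3 from -0.77 to 0.13 and PSMD12 from 0.15 to 0.96.

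Levels of the core and 19S genes varied together from experiment to experiment. With each gene's log2 level taken relative to its own mean over the 6 arrays, the median of the 30 core and 19S genes was -0.20 on zebularine 1 and -0.47 on untreated 1. It was 0.34 on zebularine 2 and 0.28 on untreated 2, and 0.16 on zebularine 3 and -0.12 on untreated 3. Over all tested genes the same median stayed between -0.014 and 0.065. Averaged over the pair of arrays, 27 of the 30 genes were lowest in experiment 1, or 90% against 30.6% of all tested genes. Experiment 2 gave the highest value in 24 of the 30, or 80% against 28.2%. Among the 2228 tested genes with a mean signal of at least 1000, a group of brightness more like that of the members, the shares were 39.7% and 37.4%.

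PSMA3 shows the pattern, with its lowest pair in experiment 1 and its highest in experiment 2 in both groups. The range over the 3 experiments exceeded the size of the treatment difference in 27 of the 30 genes, or 90%, and in 71.5% of all tested genes. These are unlike measures, since a range over 3 pair means tends to exceed a difference of 2 group means. The share is therefore to be read only beside that of all tested genes. The median range was 0.64 for the 30 genes and 0.54 for all tested genes, while the median size of the treatment difference was 0.20 and 0.31. The 6 activator, inhibitor and chaperone genes did not follow this order, with 5 lowest in experiment 1 but 5 highest in experiment 3. These are descriptions of 3 experiments and carry no test. The arrays of experiment 3 had lower maxima and lower spike control medians, as given above. What differed between the experiments was not tested.

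**Figure D5:**
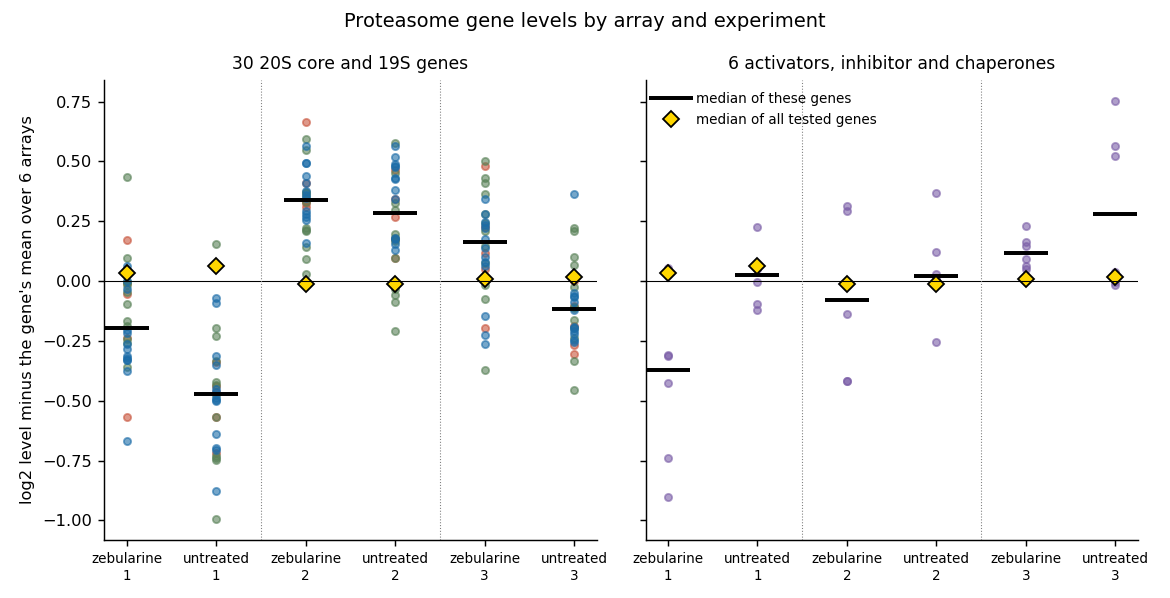
Log2 level of each proteasome gene relative to its own mean over 6 arrays, by array, for the 30 core and 19S genes (left) and the 6 others (right); black bars are medians of these genes and diamonds medians of all tested genes. The 30 genes sit low on both arrays of experiment 1 (medians -0.20 and -0.47) and high on both arrays of experiment 2 (0.34 and 0.28).

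Genes that feed, assemble or control the proteasome without a PSM symbol were mostly not called. Of 29 such genes tested, 12 had positive and 17 negative differences, with a median of -0.11. Over all genes limma called 0.642%, and of these 29 it called 0, with 4 at an unadjusted p under 0.05 against 13.1%. With the block it called 1, against 4.45%. That was UBA6, an enzyme that activates ubiquitin and FAT10, which rose in the blocked fit. Its signals were 1156, 1158 and 1696 on zebularine arrays, against 518, 691 and 344 on untreated arrays, with no overlap. The difference was 1.37 ± 0.30 (limma, adjusted p = 0.068, and 0.0206 with the block), with 1.13, 0.73 and 2.25 in experiments 1, 2 and 3. The blocked call was absent without experiment 1 and without experiment 3.

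Both transcription factors that bind the element described above had lower treated means. NFE2L1 had signals of 2522, 1485 and 2096 on zebularine arrays, against 4387, 1753 and 3535 on untreated arrays, a difference of -0.59 ± 0.34 (limma, adjusted p = 0.503). At this probe set NFE2L1 was highest in experiment 1 and lowest in experiment 2 in both groups. Averaged over the pair of arrays, most core and 19S genes were lowest in experiment 1, and most were highest in experiment 2. The other tested NFE2L1 probe sets were also highest in experiment 1 in both groups. Among the treated arrays they were lowest on zebularine 3, at 1498 and 876. Among the untreated arrays they were lowest on untreated 2, at 1664 and 797. Averaged over the pair of arrays, 39.9% of all tested genes were highest in experiment 1 and 38.3% were lowest in experiment 2. The share of genes with both was not counted. A link between NFE2L1 and the core and 19S genes was not tested. NFE2L2 had 4525, 4660 and 3727 on zebularine arrays, against 6472, 5295 and 6260 on untreated arrays, with no overlap. Its difference was -0.48 ± 0.23 (limma, adjusted p = 0.421). Among the treated arrays NFE2L2 was highest in experiment 2 and lowest in experiment 3. POMP, the chaperone that matures the core, had 8055, 10362 and 11131 on zebularine arrays, against 5882, 10380 and 6890 on untreated arrays, a difference of 0.38 ± 0.27 (limma, adjusted p = 0.606).

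The largest partner differences after UBA6 were those of the shuttle protein UBQLN4, at 0.85 ± 0.37, and of UFD1, a cofactor of the VCP segregase, at 0.70 ± 0.29 (limma, adjusted p = 0.372 and 0.348). UFD1 had signals of 2377, 3154 and 2108 on zebularine arrays, against 1114, 2249 and 1443 on untreated arrays. At the other end stood UBXN1, another VCP cofactor, at -0.74 ± 0.30, and AKIRIN2, which carries proteasomes into the nucleus, at -0.51 ± 0.44 (limma, adjusted p = 0.328 and 0.677). UBXN1 had 251, 522 and 401 on zebularine arrays, against 562, 622 and 744 on untreated arrays, with no overlap. None of these 4 passed the test in either fit.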

How the data were processed

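Total RNA from 3 zebularine and 3 untreated cultures was hybridised to 1 Affymetrix array each, and groups and replicate numbers came from the sample titles. The authors deposited 1 linear intensity per probe set and array, made with MAS5 per the submitters' processing notes, with version and settings not given in the sources used here. Trimmed array means ran from 499.1 to 499.8. No further normalization was applied. Values were taken as log2(signal + 16.34), the pseudocount being the overall median divided by 8, which shrinks differences of dim genes. After removal of 62 controls, 13545 of 22277 probe sets passed the detection filter. Groups were tested in limma 3.58.1 (R 4.3.3; mean-variance trend, two-sided, p-values adjusted by Benjamini-Hochberg over those 13545), and the fit was checked on simulated arrays. Symbols came from the platform annotation, and 7938 tested genes were each represented by their brightest probe set. Same-numbered arrays deviated together (r of 0.323, 0.210 and 0.272 over probe sets), which paired them, so the replicate number, called experiment, was fitted as a block too. With so few arrays, their number limits the precision, and p-values cover the spread between cultures of 1 line.

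The members and lists were chosen with earlier results of these data known. Genes described in full were those called in either fit, the 3 largest and 3 smallest differences of each class, PSMB5, PSMB6 and PSMB7, and of the partner list the 3 at each end with NFE2L1, NFE2L2 and POMP. Alternatives were the block, other pseudocounts, filters and normalizations, no trend, other probe set rules and leaving out arrays or experiments. Motifs and figures used Python 3.11.15 and matplotlib 3.10.9.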

Additional observations from a re-analysis of the deposited data

How the results depend on the processing

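The count of called proteasome probe sets was 0 in each unblocked alternative run, and 1 with the replicate block, also with quantile normalization or median centring added. The partner list likewise had 1 called gene in these 3 settings and 0 in the unblocked ones that used all arrays. The combined settings, and leaving out whole experiments with the block, were chosen after seeing the data. Leaving out single arrays or experiments gave 0 to 2 called members and 0 to 6 called partners, the highest in the blocked fit without experiment 2. The share of all tested probe sets or genes called in that fit is not given here. Its counts therefore cannot be set against a background. Over the same fits the median difference ran from -0.025 to 0.35 for all 36 genes, from -0.044 to 0.36 for the core, from 0.038 to 0.55 for the ATPases, from 0.029 to 0.39 for the PSMD genes and from -0.33 to -0.10 for the remaining 6. The count of intervals within a 2-fold change ran from 16 to 32. Of 24 members described in full, 13 kept their sign in all 24 alternatives. Over fits without an array or experiment PSMB1 ran from -0.17 to 0.36, PSMB4 from -0.13 to 0.11, PSMB6 from -0.0077 to 0.57, PSMC1 from -0.086 to 0.37, PSMC4 from -0.041 to 0.48 and PSMD8 from -0.10 to 0.17. PSME4 ran from -0.39 to 0.080, PSMF1 from -0.62 to 0.093, PSMG1 from -0.036 to 0.26 and PSMG2 from -0.25 to 0.018. Averaging probe sets gave PSMB4 -0.035, and leaving out probe sets of the type that can bind related transcripts gave PSME3 0.13. The ranges pool fits without 1 array, which unbalance the experiments, with fits without both arrays of an experiment. The lowest and highest medians of the 36 genes came from fits without untreated 1 and without untreated 2. Without experiment 1, 2 or 3 that median was 0.13, 0.21 and 0.12. Why the values of single genes moved was not tested. The block changed no other call among the members described in full. At 3 arrays a group, differences of the size seen in most members could not be told from 0.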
